A study of Mus musculus with 24 samples.

Results

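Fbxo32, Trim63 and Cblb encode ubiquitin ligases of muscle atrophy, Foxo1, Foxo3 and Foxo4 encode forkhead transcription factors, and Klf15 encodes a zinc-finger factor of the same setting. These 7 genes were selected by their names from the 28109 genes of the count table. Their messenger RNA was followed in 24 libraries of differentiating mouse muscle cells. The cells were C2C12 cells, an established myoblast line that the labels assign to strain C3H, and primary myoblasts (PMs) grown out from C57/B6 mice of 3 to 4 weeks. Each received either a control siRNA directed at luciferase (siControl) or a combined knockdown of Tead1 and Tead4 (siTead1/4). RNA was taken 24 hours after transfection, before differentiation (day 0), and at days 3 and 6 in medium with 2% horse serum, from 2 biological replicates of each of the 12 groups. C2C12 cells are an immortal line, and the PM cultures are not sorted by any marker named in the labels. Cell type, strain and culture medium varied together and cannot be told apart. The library numbers in the sample titles also formed a separate run for each cell type, and the labels do not say what they mark.

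In muscle, insulin and Igf1 signal through Akt, which phosphorylates Foxo factors and keeps them out of the nucleus. When Akt activity drops, nuclear Foxo factors switch on the genes of protein breakdown, among them the 2 muscle ligases Fbxo32 (atrogin-1, an F-box subunit of an SCF ligase) and Trim63 (MuRF1, a RING-finger ligase of the sarcomere). Klf15 is induced by glucocorticoids and acts on amino acid breakdown, and Cblb is a RING-finger ligase that marks Irs1, an adaptor of the insulin receptor, for degradation. Tead factors bind the MCAT element, CATTCC on one strand and GGAATG on the other.

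The windows from 250 bases before to 50 bases after the start site (RefSeq, build GRCm38.p6) are shown for Trim63 and Klf15, which had the largest changes over differentiation, and for Foxo1, which changed with siTead1/4. Capitals mark the MCAT element, the forkhead element (TGTTTAC, or GTAAACA on the other strand) and the E-box CANNTG. The E-box is a pattern for bHLH factors, myogenic ones among them. As a pattern it reads the same on both strands, though a single match need not. No marked elements overlap.
Trim63, chr4:134314870-134315169, plus strand: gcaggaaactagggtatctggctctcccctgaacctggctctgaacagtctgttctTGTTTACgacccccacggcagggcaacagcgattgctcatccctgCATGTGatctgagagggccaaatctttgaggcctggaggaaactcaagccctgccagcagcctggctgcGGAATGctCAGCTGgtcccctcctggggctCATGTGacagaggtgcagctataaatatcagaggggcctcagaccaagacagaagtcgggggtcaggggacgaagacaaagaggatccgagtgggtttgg
Klf15, chr6:90462326-90462625, plus strand: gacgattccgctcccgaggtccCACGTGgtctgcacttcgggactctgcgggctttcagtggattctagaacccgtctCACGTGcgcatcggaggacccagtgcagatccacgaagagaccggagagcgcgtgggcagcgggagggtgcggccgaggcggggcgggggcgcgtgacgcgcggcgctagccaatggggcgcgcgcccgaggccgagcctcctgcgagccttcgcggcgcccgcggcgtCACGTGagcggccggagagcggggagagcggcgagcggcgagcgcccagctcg
Foxo1, chr3:52268087-52268386, plus strand: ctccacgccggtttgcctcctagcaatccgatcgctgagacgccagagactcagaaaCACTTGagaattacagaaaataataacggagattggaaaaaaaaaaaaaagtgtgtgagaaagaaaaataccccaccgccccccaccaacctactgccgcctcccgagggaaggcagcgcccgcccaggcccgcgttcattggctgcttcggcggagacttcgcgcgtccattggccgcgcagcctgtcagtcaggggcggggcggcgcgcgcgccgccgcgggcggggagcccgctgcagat

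The Trim63 window held an MCAT element at position -80 from the start site, a forkhead element at -194 and E-boxes at -149, -72 and -50. The Klf15 window held 3 E-boxes, all CACGTG, at -228, -172 and -3, and the Foxo1 window held an E-box at -193. Windows were at hand for 5 of the 7 genes. Not shown are Foxo3 (chr10:42276646-42276945, minus strand), with MCAT elements at -180 and 21, and Cblb (chr16:52031299-52031598, plus strand), with an E-box at -171. Among all 32841 windows of this length, 14.7% held an MCAT element, 3.7% a forkhead element and 72.3% an E-box, and 17.6% held at least 3 E-boxes. These matches describe letters and not binding.

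Total counts on genes ranged from 25453830 to 52784510 per library. Levels are given in the usual CPM unit, read counts relative to library size, after TMM scaling of all 24 libraries. Together Tead1 and Tead4 kept 7.86% to 59.8% of the mean siControl CPM of the same day in the 6 siTead1/4 libraries of C2C12 cells, and 23.6% to 46.1% in those of PMs. In C2C12 cells Tead1 taken by itself passed the test on no day (log2 fold change -2.46, -1.09 and -0.52, edgeR adjusted p = 0.168, 0.501 and 0.945), and at day 6 silenced replicate 1 held 70.6 CPM of Tead1 beside 76.0 and 136.3 CPM in the controls. Tead4 missed the test in C2C12 cells at day 6 (-1.28, edgeR adjusted p = 0.318), and Tead1 in PMs at day 6 (-1.10, edgeR adjusted p = 0.143). The remaining tests of Tead1 and Tead4 were passed. The summed CPM of 9 myogenic markers was 989 to 1118 in siControl C2C12 cells at day 0 and 9951 to 10591 in siControl PMs. At day 3 it was 15557 to 18229 in siControl and 6119 to 8063 in siTead1/4 C2C12 cells, and its part in the results below was not tested. In any library the 4 adipocyte markers summed to at most 1.67 CPM, the 5 macrophage markers to 2.42 CPM, the 5 endothelial markers to 16.1 CPM and the 4 Schwann cell markers to 14.2 CPM. The 7 fibroblast markers summed to 575 to 580 CPM in siControl PMs at day 0 and to 4278 to 5190 CPM at day 6. In siTead1/4 PMs they summed to 825 to 905 CPM at day 0, above the controls, and in C2C12 libraries to 851 to 5950 CPM. Their part in the results was not tested. One library stood apart, siTead1/4 replicate 2 of C2C12 cells at day 3. In it 38 genes of at least 1 CPM were 5 or more times above each of the other 11 C2C12 libraries, against 0 or 1 such gene in each of those, and Klf15 was among them. The fitted values of the 7 genes for this group are therefore given with and without that library.

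**Figure D1:**
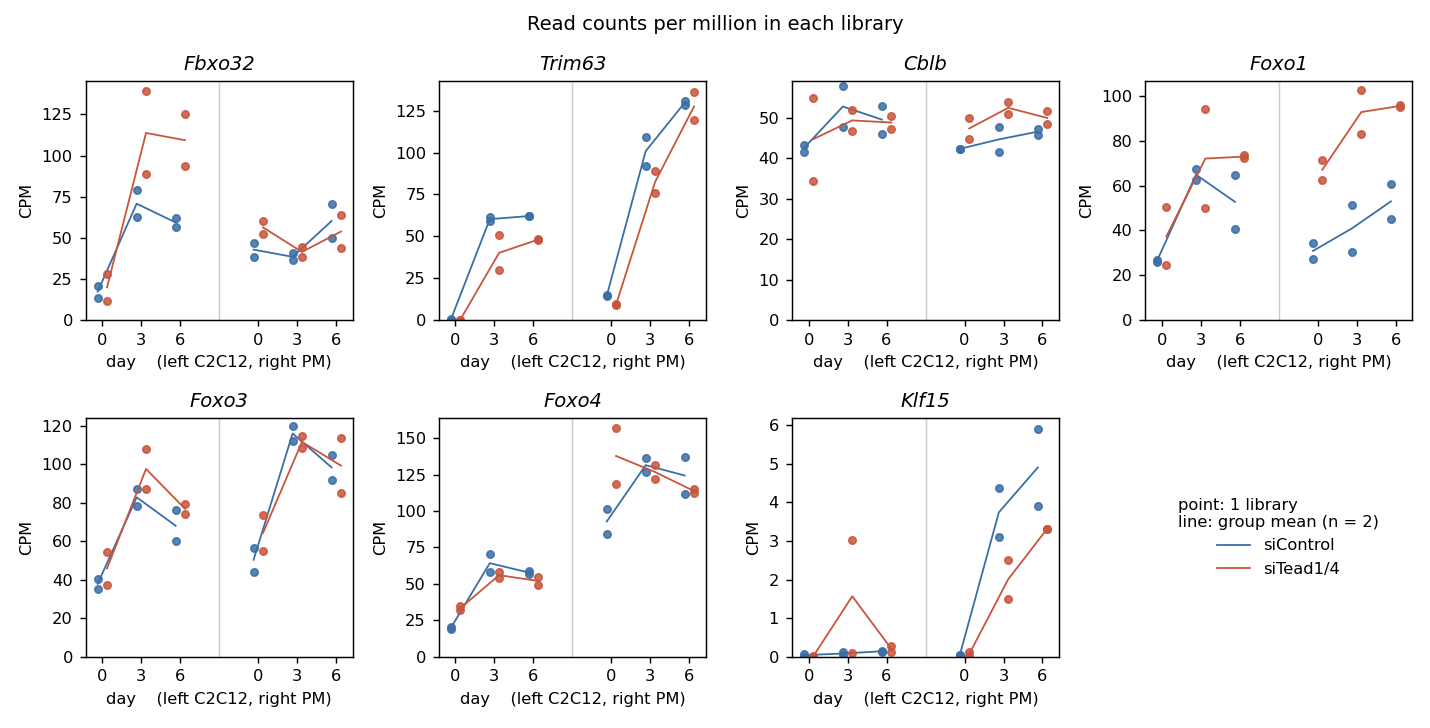
CPM (vertical axis, from 0) of the 7 genes by day, with C2C12 cells on the left and PMs on the right of each panel. Points are single libraries and lines join the means of 2 libraries. Trim63 rose over differentiation in both cell types, Klf15 in PMs, and the 2 siTead1/4 points of Foxo1 in PMs lie above the siControl points on each day.

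A gene was called when the adjusted p of edgeR's quasi-likelihood test was under 0.05 and the absolute log2 fold change exceeded 1. During differentiation of siControl C2C12 cells, Trim63, Fbxo32, Foxo4, Foxo1 and Foxo3 rose by day 3, and Cblb and Klf15 were not called. Thus 5 of the 7 genes were called at day 3 against day 0, all of them higher, where 28.7% of all tested genes were called in either direction. At day 6 against day 0, 3 of 7 were called, all higher (Trim63, Fbxo32 and Foxo4), against 31.1% of all genes. The median log2 fold change of the 7 genes was 1.26 and 1.51 at the respective days, and the median of all genes was -0.01 on both. Between days 3 and 6 none of the 7 was called, by edgeR or by DESeq2, and none had an unadjusted p under 0.05. The share of all genes called there by edgeR was 0%, and DESeq2 called 19 genes. An unadjusted edgeR p under 0.05 was found for 406 of all 15303 genes.

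In siControl PMs the same step called 3 of the 7 genes at day 3, all higher (Klf15, Trim63 and Foxo3), where 32.3% of all genes were called. At day 6 against day 0 it called 2 of 7, Klf15 and Trim63, against 35.5%. The medians of the 7 genes were 0.45 and 0.71, beside 0.01 and 0.03 for all genes. Between days 3 and 6, 0 of 7 were called by edgeR or DESeq2 against 2.8% of all genes by edgeR. Fbxo32 and Trim63 had an unadjusted edgeR p under 0.05, beside 3547 of all 16144 genes. The day 3 and day 6 comparisons share their day 0 libraries. In all of these bulk samples more RNA per cell and more cells that express a gene cannot be told apart.

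**Figure D2:**
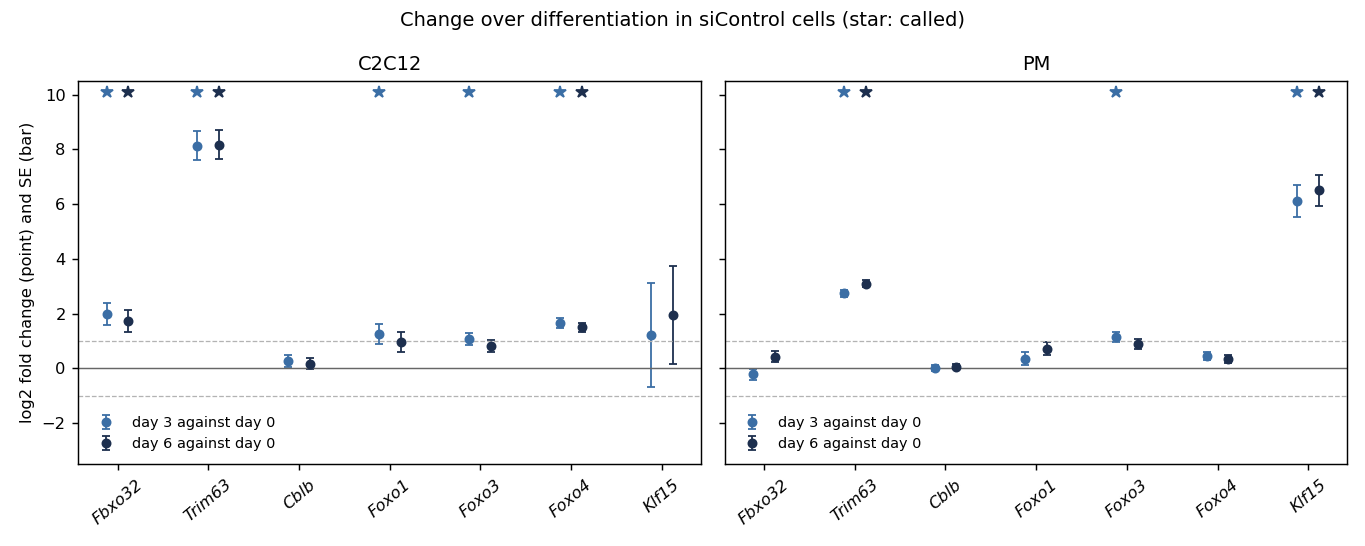
Log2 fold change (points) with its SE (bars) of siControl cells on both later days relative to day 0, in C2C12 cells and in PMs; dashed lines mark the fold limit and stars the called genes. Trim63 rose by 8.13 and 8.18 in C2C12 cells and by 2.75 and 3.10 in PMs, and Cblb lay near 0 in both.

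Trim63 (ENSMUSG00000028834, mm9 chr4:133871035-133885544, plus strand) was almost silent in C2C12 myoblasts, with 13 and 5 reads at day 0, or 0.366 and 0.0889 CPM. It reached 59.1 and 61.4 CPM at day 3 and 61.9 and 62.3 CPM at day 6. PM siControl libraries started higher, at 14.2 and 14.7 CPM, and stood at 109.5 and 92.2 CPM at day 3 and 128.5 and 131.0 CPM at day 6. Every differentiated library lay above every day 0 library of its cell type. The log2 fold change at day 3 was 8.13 ± 0.53 (SE) in C2C12 cells and 2.75 ± 0.13 in PMs, with edgeR adjusted p of 4.74e-06 and 1.72e-07. At day 6 it was 8.18 ± 0.53 and 3.10 ± 0.13, with edgeR adjusted p of 3.59e-06 and 7.72e-08. The C2C12 values rest on the few reads of day 0: without replicate 2 of that day they were 7.31 and 7.37, and without replicate 1 they were 9.33 and 9.37, all of them called.

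Fbxo32 (ENSMUSG00000022358, mm9 chr15:58011634-58046433, minus strand) was called over differentiation in C2C12 cells and not in PMs. Its C2C12 siControl levels were 21.0 and 13.6 CPM at day 0, 62.5 and 79.0 CPM at day 3, and 56.8 and 61.9 CPM at day 6. In PMs they were 38.5 and 47.2 CPM at day 0, 36.4 and 40.5 CPM at day 3, and 70.4 and 50.0 CPM at day 6. Both later C2C12 groups lay well above day 0, whereas the PM groups of days 0 and 3 overlapped and only that of day 6 lay above day 0. The log2 fold change at day 3 was 1.99 ± 0.40 in C2C12 cells (edgeR adjusted p = 0.00304) and -0.21 ± 0.20 in PMs (edgeR adjusted p = 0.397). At day 6 it was 1.74 ± 0.39 in C2C12 cells (edgeR adjusted p = 0.00549), a call lost without replicate 2 of day 0 (1.47, edgeR adjusted p = 0.0514), and 0.42 ± 0.20 in PMs (edgeR adjusted p = 0.0941). Exons of Fbxo32 share 186 bases with Gm15943, a lincRNA on the opposite strand, and the library kit does not keep the strand.

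Cblb (ENSMUSG00000022637, mm9 chr16:52031662-52208160, plus strand) was the steadiest of the 7. It ranged from 34.5 to 58.0 CPM over all 24 libraries, and its highest group mean was 1.25 times its lowest. No comparison called it, and its log2 fold changes over the 6 siControl day comparisons lay between -0.09 and 0.27.

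Among the forkhead factors, Foxo3 (ENSMUSG00000048756, mm9 chr10:41901647-41996561, minus strand) behaved alike in both cell types. In C2C12 siControl cells it had 40.5 and 35.2 CPM at day 0, 78.3 and 87.3 CPM at day 3, and 59.9 and 76.2 CPM at day 6. The PM values were 56.7 and 44.1, then 111.9 and 119.9, then 105.0 and 91.6 CPM. Both series were highest at day 3, and no differentiated library reached down to the day 0 values. The day 3 log2 fold change was 1.09 ± 0.22 in C2C12 cells (edgeR adjusted p = 0.00325) and 1.15 ± 0.18 in PMs (edgeR adjusted p = 0.000286). At day 6 it was 0.81 ± 0.22 and 0.90 ± 0.18, past the adjusted p by edgeR (0.0136 and 0.00132) and under the fold limit. Without replicate 2 of day 0 the day 3 values were 0.99 in C2C12 cells and 0.97 in PMs, also under that limit.

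Foxo1 (ENSMUSG00000044167, mm9 chr3:52072259-52154031, plus strand) stood at 25.9 and 26.9 CPM in C2C12 siControl cells at day 0, 62.5 and 67.2 CPM at day 3, and 40.7 and 64.7 CPM at day 6. In PMs it had 27.3 and 34.4, then 30.2 and 51.5, then 45.1 and 60.8 CPM. The replicates lay far apart at day 6 in both cell types and at day 3 in PMs, where the groups of days 0 and 3 overlapped. The log2 fold change at day 3 was 1.26 ± 0.37 in C2C12 cells (edgeR adjusted p = 0.0215), a call lost with any of the 4 libraries left out (1.20 to 1.32), and 0.35 ± 0.24 in PMs (edgeR adjusted p = 0.222). At day 6 it was 0.96 ± 0.37 in C2C12 cells (edgeR adjusted p = 0.0585) and 0.71 ± 0.24 in PMs (edgeR adjusted p = 0.0225), neither of them called. DESeq2 called Foxo1 in C2C12 cells at day 6 (adjusted p = 0.0297).

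Foxo4 (ENSMUSG00000042903, mm9 chrX:98449867-98456212, plus strand) rose in C2C12 siControl cells from 20.5 and 19.0 CPM at day 0 to 58.0 and 70.5 CPM at day 3 and 57.0 and 58.7 CPM at day 6. PMs held 101.2 and 84.5 CPM at day 0, 136.2 and 126.8 CPM at day 3, and 111.9 and 136.9 CPM at day 6. Every C2C12 library was thus below every PM library. In C2C12 cells the log2 fold change was 1.66 ± 0.17 at day 3 and 1.51 ± 0.17 at day 6 (edgeR adjusted p = 5.78e-05 and 9.20e-05). In PMs it was 0.45 ± 0.15 and 0.36 ± 0.15 (edgeR adjusted p = 0.0258 and 0.0623), under the fold limit.

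Klf15 (ENSMUSG00000030087, mm9 chr6:90412570-90425232, plus strand) was close to absent before differentiation, with 2 reads in each siControl PM library of day 0. It had 111 and 173 reads at day 3 (3.11 and 4.37 CPM) and 121 and 181 reads at day 6 (3.91 and 5.90 CPM). Scaled for depth this was 78.0 times the day 0 level at day 3, with a 95% counting interval of 30.2 to 288, and 101 times at day 6, with an interval of 39.2 to 374. These intervals cover counting error only. The fitted log2 fold changes, which depend on the prior at such low counts, were 6.13 ± 0.58 and 6.51 ± 0.58 (edgeR adjusted p = 8.06e-06 and 4.59e-06). C2C12 siControl libraries held 3 and 0 reads at day 0, then 2 and 6 reads, then 8 and 4 reads on the later days, which gave ratios of 2.67 (95% counting interval 0.64 to 15.6) and 4.49 (1.21 to 24.8) and no call. Even at its highest, in PMs at day 6, Klf15 stayed at 1.94 ± 0.56 CPM per kb (SD, n = 2), the lowest level of the 7 genes.

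The change over differentiation was set against the other cell type in a fit of all 24 libraries. For the change from day 0 to day 3, PM minus C2C12, 3 of 7 genes were called, all negative, where 11.2% of all genes were called. The differences were -5.39 ± 0.46 for Trim63 (edgeR adjusted p = 7.39e-07), -2.19 ± 0.47 for Fbxo32 (edgeR adjusted p = 0.00446) and -1.20 ± 0.22 for Foxo4 (edgeR adjusted p = 0.00109). For day 6, 2 of 7 were called against 12.7% of all genes, Trim63 at -5.07 ± 0.46 (edgeR adjusted p = 1.05e-06) and Foxo4 at -1.13 ± 0.22 (edgeR adjusted p = 0.00157). Fbxo32 had -1.29 ± 0.47 there (edgeR adjusted p = 0.0804). Foxo4 fell under the fold limit at day 6 without replicate 1 of the siControl PMs at day 0 or at day 6 (-0.98 in both cases). Foxo3 differed by 0.07 ± 0.29 and 0.12 ± 0.29 at the respective days, Foxo1 by -0.89 ± 0.47 and -0.21 ± 0.47, and Cblb by -0.23 ± 0.24 and -0.08 ± 0.24. For Klf15 the differences were 4.91 ± 2.58 and 4.56 ± 2.53 (edgeR adjusted p = 0.247 and 0.282). DESeq2 called Klf15 at both days (5.05 and 4.66, adjusted p = 0.0288 and 0.0448). With the 3 reads of C2C12 replicate 1 at day 0 left out, the edgeR values were 1.31 and 0.97, and without replicate 2 of that day, which had 0 reads, they were 6.16 and 5.82.

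The levels themselves were compared between siControl PMs and siControl C2C12 cells. At day 0, 3 of 7 genes were called, all higher in PMs, where 26.8% of all genes were called: Trim63 (log2 fold change 6.14 ± 0.38), Foxo4 (2.23 ± 0.16) and Fbxo32 (1.31 ± 0.34), with edgeR adjusted p of 1.83e-09, 9.50e-09 and 0.00503. The Trim63 value was 5.26 without replicate 2 and 7.28 without replicate 1 of the C2C12 cells. At day 3, 2 of 7 were called against 29.8%, Klf15 (5.39 ± 1.05) and Foxo4 (1.03 ± 0.15), with edgeR adjusted p of 0.000532 and 4.31e-05. At day 6, 3 of 7 were called against 24.9%, Klf15 (5.04 ± 1.01), Foxo4 (1.11 ± 0.15) and Trim63 (1.06 ± 0.25), with edgeR adjusted p of 0.000838, 3.11e-05 and 0.00331. Fbxo32 was lower in PMs at day 3, with -0.88 ± 0.33 (edgeR adjusted p = 0.0392), under the fold limit, and had 0.02 ± 0.33 at day 6. Foxo1 had 0.22 ± 0.33, -0.67 ± 0.33 and 0.01 ± 0.33 at days 0, 3 and 6, none past the test (edgeR adjusted p = 0.639, 0.114 and 0.989). The Fbxo32 call of day 0 was lost without replicate 2 of the C2C12 cells (0.996, edgeR adjusted p = 0.0783). Foxo4 fell under the fold limit at day 3 without replicate 1 of either cell type (0.87 and 0.96) and at day 6 without PM replicate 2 (0.94).

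**Figure D3:**
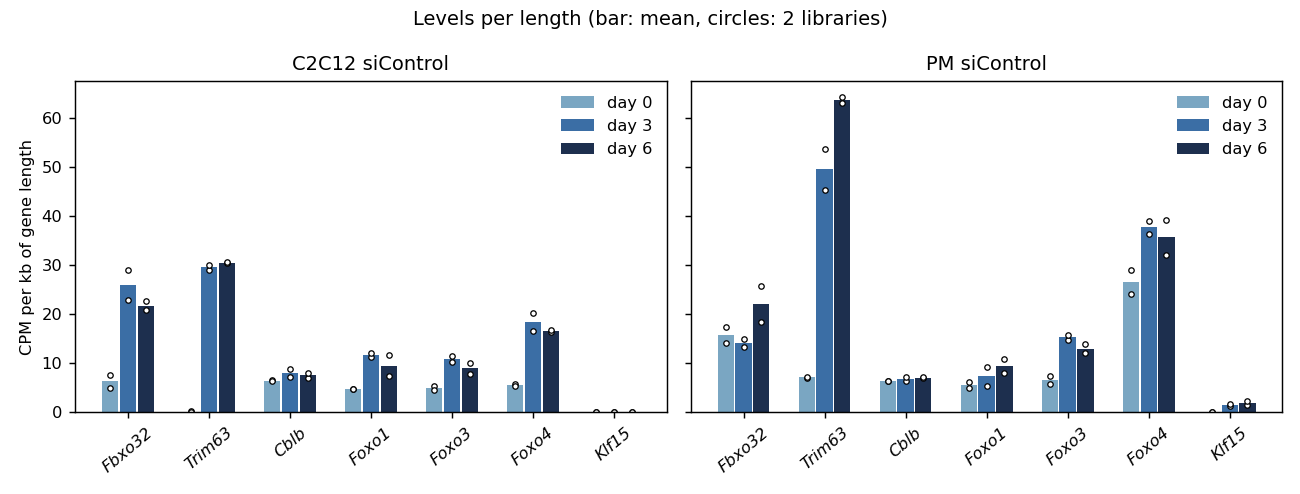
CPM per kb of gene length (vertical axis, from 0) in siControl C2C12 cells and PMs; bars are means of 2 libraries and circles the libraries. At day 0 Foxo4 led in PMs while Cblb and Fbxo32 overlapped at the top in C2C12 cells, and by day 6 Trim63 had the highest level in both.

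Per kb of gene length the genes could be set against each other. In C2C12 siControl cells at day 0, Cblb (6.47 ± 0.18 CPM per kb, SD, n = 2), Fbxo32 (6.35 ± 1.92), Foxo4 (5.67 ± 0.29), Foxo3 (5.00 ± 0.50) and Foxo1 (4.76 ± 0.13) lay close together. Of these neighbours in order, only Foxo4 and Foxo3 had libraries that did not overlap, and Trim63 followed at 0.112 ± 0.096. By day 6 the order was Trim63 (30.5 ± 0.2), Fbxo32 (21.8 ± 1.3), Foxo4 (16.6 ± 0.4), Foxo1 (9.49 ± 3.06), Foxo3 (8.99 ± 1.52) and Cblb (7.55 ± 0.75), the last 3 overlapping in their libraries. In PM siControl cells at day 0 Foxo4 led with 26.6 ± 3.4 CPM per kb, ahead of Fbxo32 with 15.7 ± 2.2. The libraries of Foxo3 (6.65 ± 1.18) overlapped those of Trim63 (7.11 ± 0.15), Cblb (6.45 ± 0.005) and Foxo1 (5.56 ± 0.91), which did not overlap one another. At day 6 Trim63 led with 63.8 ± 0.9, before Foxo4 with 35.7 ± 5.1 and Fbxo32 with 22.1 ± 5.3.

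Silencing of Tead1 and Tead4 was then compared with siControl on each day, which asks how these genes respond to the siRNAs against both factors. Foxo1 rose in PMs at days 0 and 3, and no other gene of the 7 was called in any of the 6 comparisons. In PMs 1 of 7 was called at day 0, where 2.6% of all genes were called, and 1 of 7 at day 3, against 3.3%. At day 6, 0 of 7 were called by edgeR or DESeq2, against 0.743% of all genes by edgeR. Only Foxo1 had an unadjusted edgeR p under 0.05, beside 1914 of all 16144 genes. In C2C12 cells 0 of 7 were called on each day, against 0.438%, 1.27% and 0.0457% of all genes at days 0, 3 and 6. An unadjusted edgeR p under 0.05 was seen there for Foxo4 at day 0, Klf15 at day 3 and Fbxo32 at day 6. Over all 15303 genes it was seen for 1603, 2180 and 1064 on these days. DESeq2 called 0, 1 (Klf15) and 0 of 7, beside 255, 604 and 142 of all genes. The median log2 fold changes of the 7 genes were 0.20, 0.13 and 0.18 in C2C12 cells and 0.39, -0.06 and -0.02 in PMs, and those of all genes were within 0.02 of 0.

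**Figure D4:**
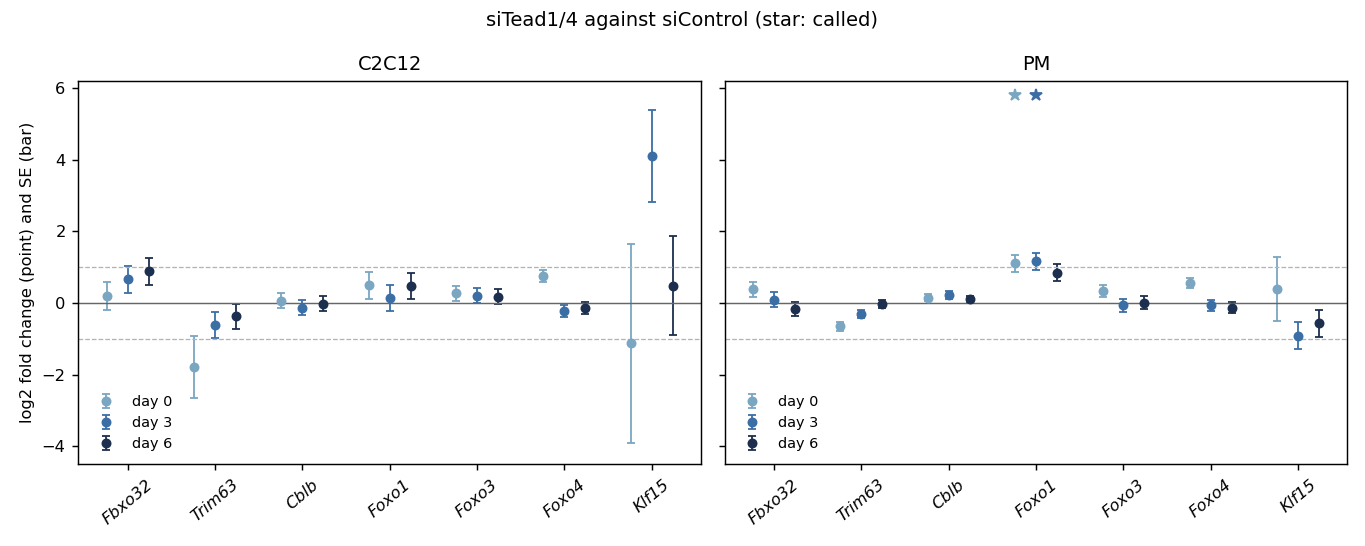
Log2 fold change (points) with its SE (bars) of siTead1/4 against siControl on each day, in C2C12 cells and in PMs; dashed lines mark the fold limit and stars the called genes. Foxo1 in PMs at days 0 and 3 carries the only stars, and the C2C12 value of Klf15 at day 3 (4.11 ± 1.27) rests on 1 library.

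In PMs the Foxo1 level was 27.3 and 34.4 CPM in siControl and 62.5 and 71.6 CPM in siTead1/4 libraries at day 0. The respective values were 30.2 and 51.5 against 82.8 and 102.7 CPM at day 3, and 45.1 and 60.8 against 95.2 and 95.9 CPM at day 6. On each day both silenced libraries lay above both controls. The controls of day 3 were the farthest apart. The log2 fold change was 1.11 ± 0.24 at day 0 (edgeR adjusted p = 0.0198), 1.17 ± 0.24 at day 3 (edgeR adjusted p = 0.0154) and 0.85 ± 0.24 at day 6 (edgeR adjusted p = 0.136). DESeq2 called Foxo1 at days 0 and 3 too. The call was lost at day 0 with any of the 4 libraries left out (0.96 to 1.28, edgeR adjusted p 0.0681 to 0.169). At day 3 it was lost without siControl replicate 1 (0.84, edgeR adjusted p = 0.092) or siTead1/4 replicate 2 (1.01, edgeR adjusted p = 0.0979). One fit of all 24 libraries gave 1.12 and 1.18 and edgeR adjusted p of 0.107 and 0.0772. Exons of Foxo1 share 674 bases with RP24-337A16.1, a processed transcript on the opposite strand, so reads of both cannot be told apart.

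In C2C12 cells Foxo1 had 25.9 and 26.9 CPM in siControl and 50.3 and 24.4 CPM in siTead1/4 libraries at day 0. At day 3 these were 62.5 and 67.2 against 94.0 and 50.1 CPM, and at day 6 they were 40.7 and 64.7 against 72.1 and 73.7 CPM. The groups overlapped at days 0 and 3, where the silenced replicates lay far apart. The fitted effects on the log2 scale came to 0.49 ± 0.37, 0.13 ± 0.36 and 0.47 ± 0.37 (edgeR adjusted p = 0.73, 0.929 and 0.901). Without the library that stood apart the day 3 value was 0.53 ± 0.38 (edgeR adjusted p = 0.67). The siTead1/4 effect on Foxo1, PM minus C2C12, was 0.62 ± 0.47 at day 0, 1.03 ± 0.47 at day 3 and 0.38 ± 0.47 at day 6 (edgeR adjusted p = 1, 0.358 and 1), so a difference between the cell types was not shown. The day 3 difference was 0.66 ± 0.47 without the library that stood apart (edgeR adjusted p = 0.717).

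Trim63 was lower with siTead1/4 in PMs at day 0, at 9.57 and 9.01 CPM against 14.2 and 14.7 CPM. The log2 fold change of -0.65 ± 0.13 passed the adjusted p (edgeR, 0.0143) and not the fold limit. At day 3 the silenced libraries had 89.2 and 75.7 CPM against 109.5 and 92.2 CPM (-0.30 ± 0.12, edgeR adjusted p = 0.172), and at day 6 119.2 and 135.9 against 128.5 and 131.0 CPM (-0.02 ± 0.12). In C2C12 cells at day 0 there were 4 reads in both silenced libraries together and 18 in the controls, a ratio of 0.292 with a 95% counting interval of 0.0718 to 0.886. That interval covers counting error only, and the libraries of these groups overlapped. The fitted log2 fold change of -1.78 ± 0.86 missed the test (edgeR adjusted p = 0.513). At day 3 the silenced libraries had 29.7 and 50.6 CPM against 59.1 and 61.4 CPM, and at day 6 47.8 and 48.3 against 61.9 and 62.3 CPM. These groups did not overlap, yet the fitted changes of -0.62 ± 0.35 and -0.37 ± 0.35 on the log2 scale missed the test (edgeR adjusted p = 0.496 and 0.926). Without the library that stood apart the day 3 value was -1.03 ± 0.41 (edgeR adjusted p = 0.357).

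Fbxo32 lay the other way in C2C12 cells. Its silenced libraries had 28.1 and 11.8 CPM at day 0, 139.0 and 88.6 CPM at day 3, and 125.3 and 93.4 CPM at day 6. From day 3 both exceeded both controls, which reached at most 79.0 CPM. The log2 fold changes were 0.20 ± 0.39, 0.66 ± 0.38 and 0.89 ± 0.38, and none passed the test (edgeR adjusted p = 0.93, 0.498 and 0.698); without the library that stood apart the day 3 value was 0.96 ± 0.43 (edgeR adjusted p = 0.418). In PMs the silenced libraries had 60.2 and 52.6 CPM at day 0, 44.5 and 38.4 CPM at day 3, and 64.0 and 43.7 CPM at day 6. The log2 fold changes there were 0.39 ± 0.20, 0.10 ± 0.20 and -0.16 ± 0.20 (edgeR adjusted p = 0.289, 0.829 and 0.859).

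For Foxo4 the silenced C2C12 libraries of day 0 had 34.7 and 31.8 CPM against 20.5 and 19.0 CPM, and the silenced PM libraries 157.1 and 118.4 CPM against 101.2 and 84.5 CPM. In both cell types the groups did not overlap at day 0. The log2 fold change was 0.75 ± 0.17 in C2C12 cells (edgeR adjusted p = 0.0982) and 0.56 ± 0.15 in PMs (edgeR adjusted p = 0.0495), the latter past the adjusted p alone. At the later days it lay between -0.22 and -0.06 in both cell types. Foxo3 had log2 fold changes of 0.18 to 0.27 in C2C12 cells and of -0.06 to 0.34 in PMs, and Cblb of -0.12 to 0.07 and 0.10 to 0.22. The lowest adjusted p of either gene in these comparisons was 0.227 (edgeR, Cblb in PMs at day 3). Without the library that stood apart the C2C12 values of day 3 were 0.37 ± 0.25 for Foxo3, -0.15 ± 0.21 for Foxo4 and -0.19 ± 0.28 for Cblb, against 0.21, -0.22 and -0.12 with it. All 6 silenced PM libraries of Cblb lay above the siControl libraries of the same day, by at most 0.22 on the log2 scale in the group means.

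Klf15 was lower in the silenced PMs after differentiation, with 70 and 101 reads at day 3 (1.5 and 2.52 CPM) and 115 and 107 reads at day 6 (3.32 and 3.32 CPM). Both lay below both controls on each day. The log2 fold changes of -0.91 ± 0.37 and -0.56 ± 0.37 did not pass the test (edgeR adjusted p = 0.178 and 0.644). In silenced C2C12 cells Klf15 had 1 and 0 reads at day 0 and 10 and 6 reads at day 6. At day 3 it had 4 reads in replicate 1 and 131 reads, or 3.03 CPM, in replicate 2, the library that stood apart, against at most 0.288 CPM in the other 11 C2C12 libraries. With both libraries the log2 fold change was 4.11 ± 1.27 (edgeR adjusted p = 0.159), and without that library it was 0.27 ± 1.19 (edgeR adjusted p = 0.967). None of the other 6 genes was called with or without it, and without replicate 1 in its place Klf15 was called (5.07, edgeR adjusted p = 0.0111).

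The siTead1/4 effect, PM minus C2C12, called 0 of 7 genes on each of the days, against 0.00591%, 1.25% and 0.0354% of all genes. Unadjusted edgeR p under 0.05 were found for 0, 2 (Foxo1 and Klf15) and 1 (Fbxo32) of 7, beside 725, 2205 and 916 of all 16926 genes. DESeq2 called 0, 1 (Klf15) and 0 of 7, beside 32, 494 and 60 of all genes. The Klf15 difference at day 3 was -5.05 ± 1.32 with all libraries and -1.17 ± 1.21 without the library that stood apart (edgeR adjusted p = 0.0767 and 0.859).

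The wider pathway was followed in 6 lists with 84 tested rows, Fbxo31 having 2 rows. In siControl C2C12 cells 24 rows were called at day 3 and 25 at day 6 (28.6% and 29.8%), and in PMs 23 and 26 (27.4% and 31%), shares that stood near those of all genes. Most were higher at these later days, namely 20 and 21 rows in C2C12 cells and 22 and 25 in PMs. Between days 3 and 6 the lists held 0 called rows in C2C12 cells and 1 in PMs, Gpt2, an alanine transaminase (log2 fold change -1.04 ± 0.15, edgeR adjusted p = 0.00713).

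Of the muscle E3 ligases and SCF partners (18 rows), 5 rose on each day in C2C12 cells and 6 in PMs, and 0 fell. Of all genes 28.7% and 31.1% were called in C2C12 cells at days 3 and 6 and 32.3% and 35.5% in PMs, so that these counts, and the autophagy counts given next, lay near the share of all genes. Fbxo40, a muscle F-box protein that targets Irs1, had the largest change on each day in both. It went from 0.111 ± 0.082 CPM (SD, n = 2) at day 0 to 40.3 ± 4.2 CPM at day 6 in C2C12 cells and from 2.39 ± 0.58 to 59.2 ± 9.1 CPM in PMs. Trim54 (MuRF3), a relative of Trim63, went from 2.79 ± 1.16 to 82.9 ± 2.5 CPM in C2C12 cells. Of 14 autophagy genes 4 rose at day 3 in each cell type, and 4 and 5 at day 6. Map1lc3a, a core protein of the autophagosome, rose by 3.22 ± 0.32 in C2C12 cells and 2.95 ± 0.22 in PMs at day 6, and Tfeb, a regulator of lysosome genes, by 2.1 ± 0.34 and 3.25 ± 0.22 on the log2 scale (edgeR adjusted p at most 0.00085).

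Among 12 other Foxo target genes 6 rose and 1 fell at day 3 in C2C12 cells, and 4 rose and 0 fell in PMs. At day 6 these were 6 and 5 risen and 0 fallen. The share of all genes called on these days was 28.7% and 31.1% in C2C12 cells and 32.3% and 35.5% in PMs. In C2C12 cells the list lay above these shares and in PMs nearer to them, which was not tested. Pink1, a kinase of mitochondrial quality control, rose by 3.09 ± 0.18 in C2C12 cells and 3.63 ± 0.12 in PMs at day 6 (edgeR adjusted p = 2.58e-06 and 2.88e-08). The list median at day 6 was 1.14 in C2C12 cells and 0.63 in PMs, beside -0.01 and 0.03 for all genes. In the glucocorticoid and Klf15 arm (12 genes), 2 rose and 3 fell on each day in C2C12 cells, and 5 rose and 1 fell in PMs. These counts too lay above the shares of all genes, which was not tested. Prodh, which opens proline breakdown, fell by 2.49 ± 0.33 in C2C12 cells and by 1.57 ± 0.24 in PMs at day 6 on the log2 scale (edgeR adjusted p = 0.000277 and 0.000245). Cebpd, a transcription factor induced by glucocorticoids, rose by 1.98 ± 0.38 and 1.96 ± 0.26 (edgeR adjusted p = 0.0022 and 7.90e-05). Tsc22d3 was called higher on each day, by 1.94 ± 0.25 and 1.92 ± 0.25 in C2C12 cells and by 1.88 ± 0.16 and 1.41 ± 0.16 in PMs (edgeR adjusted p at most 0.000252). In PMs Mt2 and Cebpb were also called higher on each day, Bcat2 at day 3 and Per1 at day 6. Other genes of this arm fell. At day 3 in C2C12 cells Ddit4 had -1.64 ± 0.46 and Fkbp5 -1.56 ± 0.28 (edgeR adjusted p = 0.0166 and 0.00182). Fkbp5 was also called lower in PMs at day 3 (-1.33 ± 0.11, edgeR adjusted p = 2.84e-06).

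Of 16 genes of the insulin and Akt input 3 rose in each cell type on each day, and 1 fell at day 6 in C2C12 cells, a smaller share than the 28.7% to 35.5% of all genes, a difference that was not tested. Igf1, the growth factor, went from 0.170 ± 0.039 to 37.7 ± 5.9 CPM at day 6 in C2C12 cells and from 1.84 ± 0.86 to 11.7 ± 0.02 CPM in PMs. Insr, the insulin receptor, rose by 1.46 ± 0.14 in PMs at day 6 (edgeR adjusted p = 8.60e-06). Of 12 ubiquitin and proteasome genes 0 were called at day 3 and 1, the ubiquitin-conjugating enzyme Ube2b, rose at day 6 in each cell type (1.07 ± 0.18 and 1.06 ± 0.10).

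**Figure D5:**
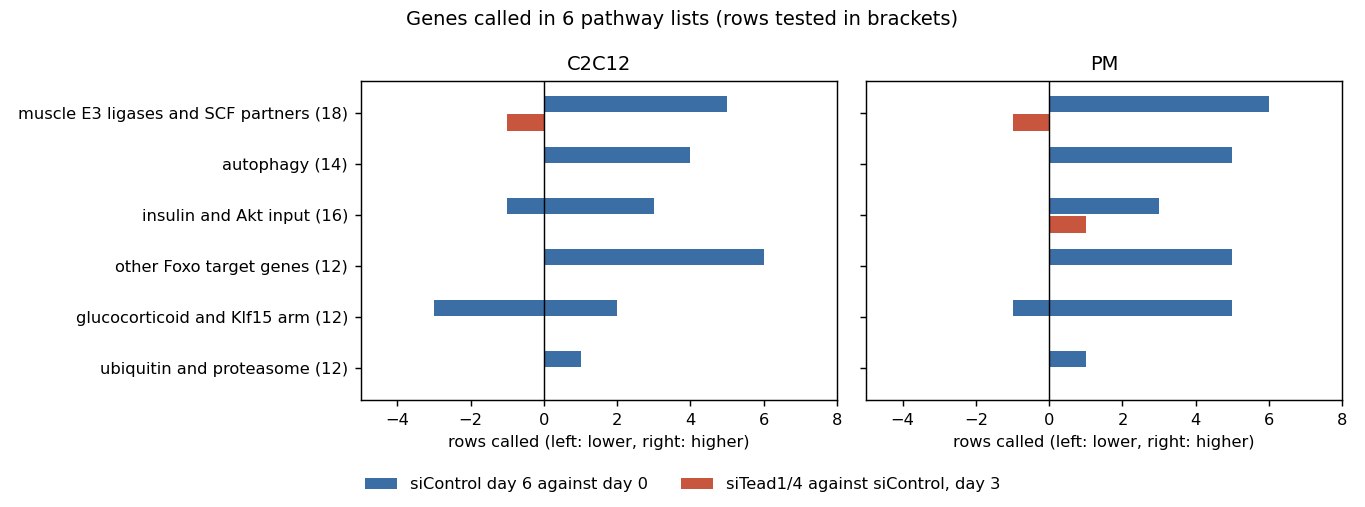
Number of called rows (horizontal axis) in the 6 lists, lower to the left and higher to the right, for siControl day 6 against day 0 and for siTead1/4 against siControl at day 3. Differentiation called 25 rows in C2C12 cells and 26 in PMs (29.8% and 31%, beside 31.1% and 35.5% of all genes), and silencing called 1 and 2 (1.19% and 2.38%, beside 1.27% and 3.3%).

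With siTead1/4 the called rows numbered 0, 1 and 0 in C2C12 cells at days 0, 3 and 6, and 2, 2 and 1 in PMs. These are 0%, 1.19% and 0% of the rows in C2C12 cells, beside 0.438%, 1.27% and 0.0457% of all genes, and 2.38%, 2.38% and 1.19% in PMs, beside 2.6%, 3.3% and 0.743%, so the lists lay near the share of all genes. DESeq2 called 0, 3 and 1, and 3, 2 and 1, and an unadjusted p under 0.05 was found for 14, 18, 9, 32, 28 and 10 rows in the same order. Over all genes such a p was found for 1603, 2180 and 1064 of 15303 in C2C12 cells. In PMs it was found for 3756, 3668 and 1914 of 16144. By this measure the share of rows was larger than that of all genes, though nearly equal to it in PMs at day 6. These differences were not tested. Fbxo40 fell in C2C12 cells at day 3, from 19.9 ± 5.8 to 5.46 ± 0.95 CPM (log2 fold change -1.90 ± 0.36, edgeR adjusted p = 0.0359). In PMs it fell at day 3 from 45.6 ± 7.9 to 8.05 ± 0.50 CPM (-2.51 ± 0.30, edgeR adjusted p = 0.00135) and at day 6 from 59.2 ± 9.1 to 20.6 ± 10.0 CPM (-1.52 ± 0.29, edgeR adjusted p = 0.0353). The day 3 call in PMs held with each of the 4 libraries left out (-2.68 to -2.32). In C2C12 cells it was lost with any left out, and the value without the library that stood apart was -2.07. At day 6 in PMs it held in 1 of 4 cases (-2.13 to -1.09).

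At day 0 in PMs 2 genes were called. Sgk1, a kinase that phosphorylates Foxo3, rose from 29.5 ± 5.8 to 60.8 ± 9.6 CPM (1.03 ± 0.25, edgeR adjusted p = 0.031), and Txnip, an inhibitor of thioredoxin, from 7.18 ± 2.62 to 31.2 ± 5.9 CPM (2.1 ± 0.47, edgeR adjusted p = 0.0248). Pik3r1, the regulatory subunit of PI3-kinase, rose at day 3 from 39.5 ± 10.3 to 80.1 ± 15.7 CPM (1.01 ± 0.18, edgeR adjusted p = 0.00875). Sgk1 and Txnip were not called with any of the 4 libraries left out (0.84 to 1.25 and 1.77 to 2.54), and Pik3r1 was called in 2 of 4 such cases (0.77 to 1.30).

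The relatives of the 7 genes moved as follows. Foxo6, the fourth Foxo factor, rose over differentiation from 3.03 ± 0.97 to 61.5 ± 2.0 CPM at day 6 in siControl C2C12 cells and from 5.32 ± 0.12 to 42.5 ± 19.8 CPM in PMs (log2 fold change 4.31 ± 0.29 and 2.93 ± 0.32, edgeR adjusted p = 4.04e-06 and 2.22e-05). With siTead1/4 it fell in C2C12 cells at day 3, to 15.7 and 20.7 CPM against 49.5 and 46.7 CPM (-1.43 ± 0.25, edgeR adjusted p = 0.0322), a call lost with any of the 4 libraries left out (-1.62 to -1.23). At day 6 it had 18.8 and 24.0 against 62.9 and 60.1 CPM (-1.52 ± 0.25, edgeR adjusted p = 0.0849). In PMs its siTead1/4 values were between -0.77 and -0.05 and not called. Cbl, the close relative of Cblb, fell at day 6 in siControl PMs (-1.39 ± 0.41, edgeR adjusted p = 0.0129), and Cbl was not called in the other day comparisons or with siTead1/4. Cblc, the third Cbl gene, was called higher at days 3 and 6 in both cell types on few reads, with 0 and 0, 11 and 21, then 27 and 18 reads in siControl C2C12 cells and 1 and 0, 13 and 19, then 9 and 7 reads in siControl PMs.

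The 24 libraries also gave the genes most like each of the 7, as Pearson's r of log2 CPM among 16919 other genes. The points share cell type, siRNA and day, so these values only describe. Trim63 was most like Myl4 (r = 0.994) and Tnni2 (0.991), which encode a myosin light chain and a fast troponin I. Foxo3 was most like Ypel2 (0.953) and Rmnd5a (0.944), Foxo4 like Emid2 and Zscan21 (0.961 each), and Fbxo32 like Ttc28 (0.946) and Tcf4 (0.922). Klf15 was most like Dhrs11 (0.938) and Rsph3b (0.935), Cblb like Tet1 (0.884) and 9930021J03Rik (0.821), and Foxo1 like Tgfb2 (0.878) and Bach2 (0.872). Among the 7 themselves, r was highest between Trim63 and Foxo3 (0.818) and lowest between Fbxo32 and Klf15 (0.241).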

How the data were processed

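Per the labels, polyadenylated RNA was sequenced from TruSeq libraries, whose protocol loses strand. The submitters' processing notes name CASAVA 1.8.2, TopHat2 2.0.10, Bowtie2 2.1.0, HTSeq 0.6.1, DESeq2 1.8.1 and build mm9. The authors deposited raw read counts per gene and the same counts divided by size factors, and the raw counts alone were used here. A further 36 columns belong to libraries outside the sample list and were not used. Gene lengths are those deposited by the authors.

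Differential expression was tested with edgeR 4.0.16 (filterByExpr, TMM, glmQLFit, glmQLFTest; R 4.3.3) and, as an alternative, DESeq2 1.42.0. One model of 6 group means was used per cell type (15303 genes tested in C2C12 cells and 16144 in PMs), and one of 12 group means on all 24 libraries for differences between cell types (16926 genes). All 7 genes passed each filter. Benjamini-Hochberg adjustment ran over all genes tested in a comparison. The SE of an edgeR log2 fold change is its absolute value divided by the square root of the test's F statistic. It is thus derived from the test and is not a separate estimate. Levels in CPM use a TMM scaling of the 24 libraries, and log2 CPM a prior count of 2. Where neither library of a group held over 3 reads, the ratio of pooled reads is given with an exact 95% interval, which covers counting error only. Other settings tried were RLE scaling, no filter, no fold limit, other sets of libraries, a replicate block and each library left out. Members, pathway lists and markers were chosen with earlier results of these data known. Beyond the 7 genes, those named are the other Foxo and Cbl family members, Tead1 and Tead4, the 2 genes most correlated with each, and per list and comparison up to 3 called genes. In the glucocorticoid and Klf15 arm further called genes are named. The fits were tested on simulated data with 200 genes changed by 2 on the log2 scale. This was done for siTead1/4 at day 3 in C2C12 cells and in PMs, and for its difference at day 0. In that order edgeR recovered 174, 188 and 152 genes with 10, 11 and 9 false calls. DESeq2 recovered 183, 190 and 168 with 46, 12 and 29 false calls. The changed genes were drawn only from those above a minimum mean count, and no other difference between groups was simulated. These numbers therefore do not speak for smaller changes or for genes of few reads. No 2 replicates were identical, and each of the 12 pairs differed by more than counting noise (chi-square per degree of freedom 18 to 314). The labels call them biological replicates without naming separate cultures, so p-values measure the spread between these samples. Gene positions are those of the table, and strands and overlapping genes come from GENCODE vM1 on the same build.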

Additional observations from a re-analysis of the deposited data

Results flagged for a closer look

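The changes of Trim63, Fbxo32 and Foxo4 over differentiation of siControl cells differed between the cell types by the test of the difference itself, as did those of Trim63 and Foxo4 at day 6. PM minus C2C12, the log2 differences from day 0 to day 3 were -5.39 for Trim63, -2.19 for Fbxo32 and -1.20 for Foxo4. From day 0 to day 6 they were -5.07 for Trim63 and -1.13 for Foxo4. For Trim63 the day 0 level behind the C2C12 change was 13 and 5 reads, and it was 672 and 521 reads in PMs. Over 13 other settings and left-out libraries the Trim63 difference ranged from -6.55 to -4.53 at day 3 and from -6.23 to -4.21 at day 6. The setting without a fold limit is among these and keeps the fitted value by construction. The Fbxo32 difference at day 3 ranged from -2.53 to -1.89, and the Foxo4 difference from -1.33 to -1.05 at day 3 and from -1.27 to -0.98 at day 6. Strain, medium and the run of library numbers differ between the cell types with the line, and their part was not tested. Groups of 2 libraries are too small for a test of single outlying samples.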

How the results depend on the processing

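The number of the 7 genes called did not move past 1.5 times in 202 of 225 recomputed counts, and no called value turned its sign. Of the 1567 single values, 21 lost a call and 25 gained one. The setting without a fold limit reuses the fitted values, so no sign could turn there. RLE scaling and a fit of only the 4 libraries of a comparison changed no count. Without the filter on low counts 1 gene (Klf15) was called with siTead1/4 in C2C12 cells at day 3, 1 in its difference between cell types, and 4 in the change to day 6 between cell types. DESeq2 called 1 and 1 (Klf15) in the first pair of these. Without a limit on the fold change 3 genes were called with siTead1/4 in PMs at day 0, 4 at day 6 against day 0 in PMs and 4 between PMs and C2C12 cells at day 3. Of all genes 7.72%, 61.4% and 45.8% passed the adjusted p in the same comparisons. One fit of all 24 libraries called 1 gene with siTead1/4 in C2C12 cells at day 3 and 0 in PMs at days 0 and 3. With each library left out in turn the counts ranged from 0 to 1 for siTead1/4 in C2C12 cells at day 3, 0 to 0 in PMs at day 0 and 0 to 1 at day 3. They ranged from 3 to 4 for day 3 against day 0 in C2C12 cells, 1 to 2 for the change to day 6 between cell types, 1 to 3 between PMs and C2C12 cells at day 3 and 0 to 1 for the siTead1/4 difference at day 3. In such fits a lone library was assumed to vary like the other groups. The cause of these moves was not tested.

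Over all genes, siTead1/4 called 67, 195 and 7 genes in C2C12 cells at days 0, 3 and 6. These counts were 255, 604 and 142 with DESeq2, 480, 1055 and 387 without the filter, 245, 690 and 88 with all 24 libraries, and 0, 7 and 0 with only 4. In PMs the 420, 532 and 120 calls became 204, 312 and 60 with all 24 libraries. The PM calls of day 3 were 804 without the filter, and those of day 6 were 224 with DESeq2, 335 without the filter and 0 with only 4 libraries. Day 6 against day 3 gave 0 calls in C2C12 cells, 19 with DESeq2 and 102 without the filter, and 452 calls in PMs, 709 without the filter, 164 with all 24 libraries and 148 with only 4. The 1, 212 and 6 calls of the siTead1/4 difference became 32, 494 and 60 with DESeq2 and 88, 853 and 146 without the filter. With RLE scaling the C2C12 calls of day 6 were 1 higher and 5 lower, against 2 and 5.

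Replicate numbers are shared between groups, and the labels do not say what they mark. The deviations of same-numbered libraries correlated at -0.142, 0.0951 and 0.525 in C2C12 cells and 0.414, 0.443 and 0.539 in PMs at days 0, 3 and 6. With the number as a replicate block no count of the 7 genes changed by over 1.5 times, and Fbxo32 was called in the change to day 6 between cell types (-1.36, edgeR adjusted p = 0.034). Over all genes the block gave 12 calls for siTead1/4 in C2C12 cells at day 6, 290 in PMs at day 6, 732 for day 6 against day 3 in PMs, and 5, 327 and 34 for the siTead1/4 difference. At day 0 in C2C12 cells 82 genes were called with the block and 120 with crossed numbers, a setting chosen after seeing the data.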

Other observations

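The C2C12 library of siTead1/4 replicate 2 at day 3, in which Klf15 reached 3.03 CPM, also held high levels of genes of the unfolded protein response, picked here after their values were seen. Hspa5, the chaperone BiP of the endoplasmic reticulum, was at 13723 CPM there and at 544 to 1457 CPM in the other 11 C2C12 libraries. Ddit3, the stress factor Chop, was at 310.0 CPM against 10.4 to 28.2 CPM, and Sdf2l1, a chaperone partner of the endoplasmic reticulum, at 437.4 CPM against 10.8 to 44.3 CPM. Trib3, a pseudokinase that binds Akt, was at 206.7 CPM against 2.19 to 26.1 CPM. Replicate 1 of the same group showed none of these levels, and their part in the Klf15 value was not tested.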
